A study of Homo sapiens with 12 samples.

Results

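The thymocyte stage surface markers are 10 genes whose products are used to place a T-lineage cell along its maturation in the thymus: CD1A, CD1B, CD1C, CD1E, CD2, CD4, CD5, CD7, CD8A and CD8B. They were found by matching the Ensembl identifiers of the deposited tables to these symbols, and all 10 were present among the 58288 genes listed. HPB-ALL and KOPTK1 are established human cell lines of T-acute lymphoblastic leukemia (T-ALL), a cancer of T-cell progenitors. RNA-Seq libraries came from HPB-ALL and KOPTK1 cells infected with pLKO.1 lentivirus carrying either an shRNA against SHQ1, an assembly factor of H/ACA ribonucleoproteins, or the control shRNA against GFP, and kept in puromycin (2 μg/mL), for 48 h according to the labels. Each line has 3 libraries of the control shRNA and 3 of the SHQ1 shRNA, so both lines carry a lentiviral hairpin in every library. Each line is a single leukemia, so a difference between the lines is a difference between 2 leukemias. The labels do not say that the libraries of a line came from separate cultures, and p-values therefore measure only the spread between these libraries.

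Progenitors that enter the thymus gain CD7, CD5 and CD2 early, pass through a cortical stage at which CD1 molecules appear and CD4 and CD8 are carried together, and then lose CD1 and keep either CD4 or CD8. CD1a, CD1b and CD1c present lipid antigens at the cell surface, whereas CD1e stays inside the cell and helps to load lipids. CD4 and CD8 bind MHC class II and class I, respectively, and bring the kinase LCK to the T-cell receptor. In T-ALL these markers are used to name the stage at which a leukemia resembles normal thymocytes.

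The libraries carry the numbers 1 to 12 in the tables, with 1 to 6 in the KOPTK1 table and 7 to 12 in the HPB-ALL table. These numbers do not give the shRNA, so the 2 arms were not compared and all values below compare the lines over both arms. SHQ1, the shRNA target, was at 70.3, 71.8 and 70.9 RPKM (read counts divided by exonic length and by the total of the library, so that levels can be set side by side across genes and libraries) in libraries 7, 8 and 9, and at 47.6, 46.4 and 49.1 in libraries 10, 11 and 12. In KOPTK1 it was at 45.7, 44.1 and 46.4 RPKM in libraries 1, 2 and 3 and at 41.9, 41.8 and 39.3 in libraries 4, 5 and 6; no arm was read from these levels.

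The total count per library was 36792076 to 42842791 in HPB-ALL and 22884785 to 36098045 in KOPTK1. Within KOPTK1 it was 33905452 to 36098045 in libraries 1, 2 and 3 and 22884785 to 25938761 in libraries 4, 5 and 6. The KOPTK1 libraries fell into separate sets across all genes tested. The Pearson correlation of log2(RPKM + 0.1) with HPB-ALL libraries was 0.904 to 0.929 for libraries 1, 2 and 3 and 0.813 to 0.841 for libraries 4, 5 and 6. Each marker is therefore also given without libraries 1, 2 and 3, and so are the counts of each gene list. As libraries 1, 2 and 3 were nearer to HPB-ALL, leaving them out favours larger differences between the lines. Leaving out libraries 4, 5 and 6 favours smaller ones. Since no arm was assigned, the arms may be unequal between the lines in either fit. Of 10 markers chosen for the T lineage, 9 were matched and all 9 were tested, and their summed level was 1434 to 1460 RPKM in HPB-ALL and 2141 to 2682 in KOPTK1. The largest part of this gap was TRBC2, with means of 204 RPKM in HPB-ALL and 1083 in KOPTK1. The other genes of the list differed in both directions, as given below. The 8 myeloid and dendritic markers were all under 1 RPKM in every library. The 5 B-cell markers summed to 41.1 to 46.6 RPKM in HPB-ALL and 6.26 to 25.2 in KOPTK1, most of it CD79A, while the defining markers MS4A1 and PAX5 did not reach the minimum level. The part of these markers in the results below was not tested.

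Of the 10 markers, 9 had a mean of at least 1 RPKM over the 12 libraries and were tested with edgeR. At an adjusted p under 0.05, 6 of the 9 differed between the lines, beside a background of 65.0% of the 23090 genes tested. CD1A, CD1E and CD7 were higher in HPB-ALL (background 32.5%), and CD1B, CD2 and CD8A were higher in KOPTK1 (background 32.4%). These shares are close to the background, whereas the sizes were unequal: the 3 genes higher in KOPTK1 differed by 2.77-fold to 5.77-fold, and the 3 higher in HPB-ALL by 1.19-fold to 1.32-fold. CD8A, at 5.77-fold, reached the minimum level only through KOPTK1, which favoured its call there. CD1B and CD2 differed by 2.77-fold and 3.51-fold. The median log2 difference (HPB-ALL minus KOPTK1) of the 9 markers was 0.12, and that of all genes tested was -0.02. The median size of the difference was 0.36 for the markers and 0.31 for all genes tested.

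CD8A and CD2 had the largest differences. The bases just upstream of both genes are printed from RefSeq on GRCh38.p14, in the direction of transcription, as these were the markers whose RefSeq entry held at least 200 bases before the exons of the tables. The stretches lie at chr1:116754180-116754384 (plus strand) for CD2 and at chr2:86808397-86808646 (minus strand) for CD8A, and both end before the first exon of the deposited tables. Capitals mark the E-box CANNTG, the motif bound by E proteins.
CD2: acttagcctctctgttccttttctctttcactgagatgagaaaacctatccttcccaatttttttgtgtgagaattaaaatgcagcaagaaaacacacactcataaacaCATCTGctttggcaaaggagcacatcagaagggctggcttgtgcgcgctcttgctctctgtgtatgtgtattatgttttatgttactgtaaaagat
CD8A: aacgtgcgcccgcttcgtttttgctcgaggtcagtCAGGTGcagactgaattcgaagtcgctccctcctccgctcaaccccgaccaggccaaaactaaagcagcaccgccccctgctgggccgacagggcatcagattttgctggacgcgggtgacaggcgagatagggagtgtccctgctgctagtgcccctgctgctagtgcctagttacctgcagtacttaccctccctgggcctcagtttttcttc
Each stretch held 1 match to CANNTG, a pattern that finds the same places on both strands. Of 35116 RefSeq promoter windows, 55.4% held it within the same 205 bases as for CD2 and 61.8% within the same 250 bases as for CD8A. The RUNX core TGTGGT, the GATA motif GATAA and the TCF/LEF motif CTTTGA were searched on both strands and had no match in either stretch. They occurred in 9.21%, 17.7% and 9.59% of all windows of 205 bases, and in 10.98%, 20.4% and 11.2% of those of 250 bases. A match is a description of the letters, and binding was not measured here.

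CD8A encodes the CD8 alpha chain, which pairs with itself or with the beta chain to form the MHC class I coreceptor. The gene lies at chr2:86784610-86808396 on the minus strand (hg38). In HPB-ALL, CD8A ranged from 0.805 to 1.03 RPKM with a median of 0.985. KOPTK1 had it at 4.35, 4.05 and 4.61 RPKM in libraries 1, 2 and 3, and at 6.78, 6.62 and 6.78 in libraries 4, 5 and 6. The lines did not overlap, and libraries 1, 2 and 3 lay between HPB-ALL and libraries 4, 5 and 6. CD8A was 5.77-fold lower in HPB-ALL (log2 difference -2.53, SE 0.15, edgeR adjusted p = 3.4e-08). The fold was 6.97 without libraries 1, 2 and 3 and 4.55 without libraries 4, 5 and 6. At 0.954 ± 0.0828 RPKM (SD, n = 6) in HPB-ALL, CD8A reached the minimum level through KOPTK1, where its mean was 5.53 ± 1.32 RPKM (SD, n = 6). This favoured its call as higher in KOPTK1. In bulk RNA, fewer cells with a transcript and less of it per cell cannot be told apart, here and for every gene below.

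CD8B encodes the CD8 beta chain and lies 6943 bases from CD8A, at chr2:86815339-86861924 on the same strand. It ranged from 1.16 to 1.64 RPKM in HPB-ALL, with a median of 1.50. The KOPTK1 levels were 1.40, 1.76 and 1.37 RPKM in libraries 1, 2 and 3 and 1.14, 1.28 and 0.914 in libraries 4, 5 and 6. The lines overlapped over most of their range. The log2 difference was 0.12 (95% interval -0.19 to 0.42, edgeR adjusted p = 0.49), so a difference of the size seen for CD8A lies outside the interval. Without libraries 1, 2 and 3 it was 0.38 with an adjusted p of 0.040, and without libraries 4, 5 and 6 it was -0.07 with an adjusted p of 0.69. The counts behind CD8B were low, 39 to 129 per library, and its exons share 98 bases with ANAPC1P1, a pseudogene on the other strand at means of 0.209 RPKM in HPB-ALL and 0.264 in KOPTK1.

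The ratio of CD8A to CD8B followed from these levels. In HPB-ALL it ranged from 0.557 to 0.865, below 1 in all 6 libraries. In KOPTK1 it ranged from 2.30 to 7.42, above 1 in all 6. The beta-chain transcript was thus the more abundant of the pair per kilobase in HPB-ALL, and the alpha-chain transcript in KOPTK1.

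CD4, which encodes the MHC class II coreceptor, was the lowest of the 10 markers in both lines by its mean. It lies at chr12:6789472-6820808 on the plus strand. In HPB-ALL it was at 0.729, 0.842 and 0.876 RPKM in libraries 7, 8 and 9 and at 1.04, 1.11 and 0.960 in libraries 10, 11 and 12. Its KOPTK1 levels were 0.753, 0.652 and 0.838 RPKM in libraries 1, 2 and 3 and 0.325, 0.483 and 0.483 in libraries 4, 5 and 6. The lines overlapped, and libraries 4, 5 and 6 were the lowest of the 12. The counts were 104 to 156 per library in HPB-ALL and 29 to 104 in KOPTK1, so CD4 was detected in every library.

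With a mean under 1 RPKM, CD4 could be tested only without a minimum level, over 48405 genes of which 40.3% were called. In that fit its log2 difference was 0.69 (SE 0.18, edgeR adjusted p = 0.0045), higher in HPB-ALL. It was 1.16 without libraries 1, 2 and 3 (adjusted p = 3.3e-08) and 0.33 without libraries 4, 5 and 6, which did not pass (adjusted p = 0.069). The ratio of CD8A to CD4 ranged from 0.722 to 1.36 in HPB-ALL and from 5.51 to 20.9 in KOPTK1. CD8A was thus the more abundant of the pair per kilobase in all 6 KOPTK1 libraries.

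**Figure D1:**
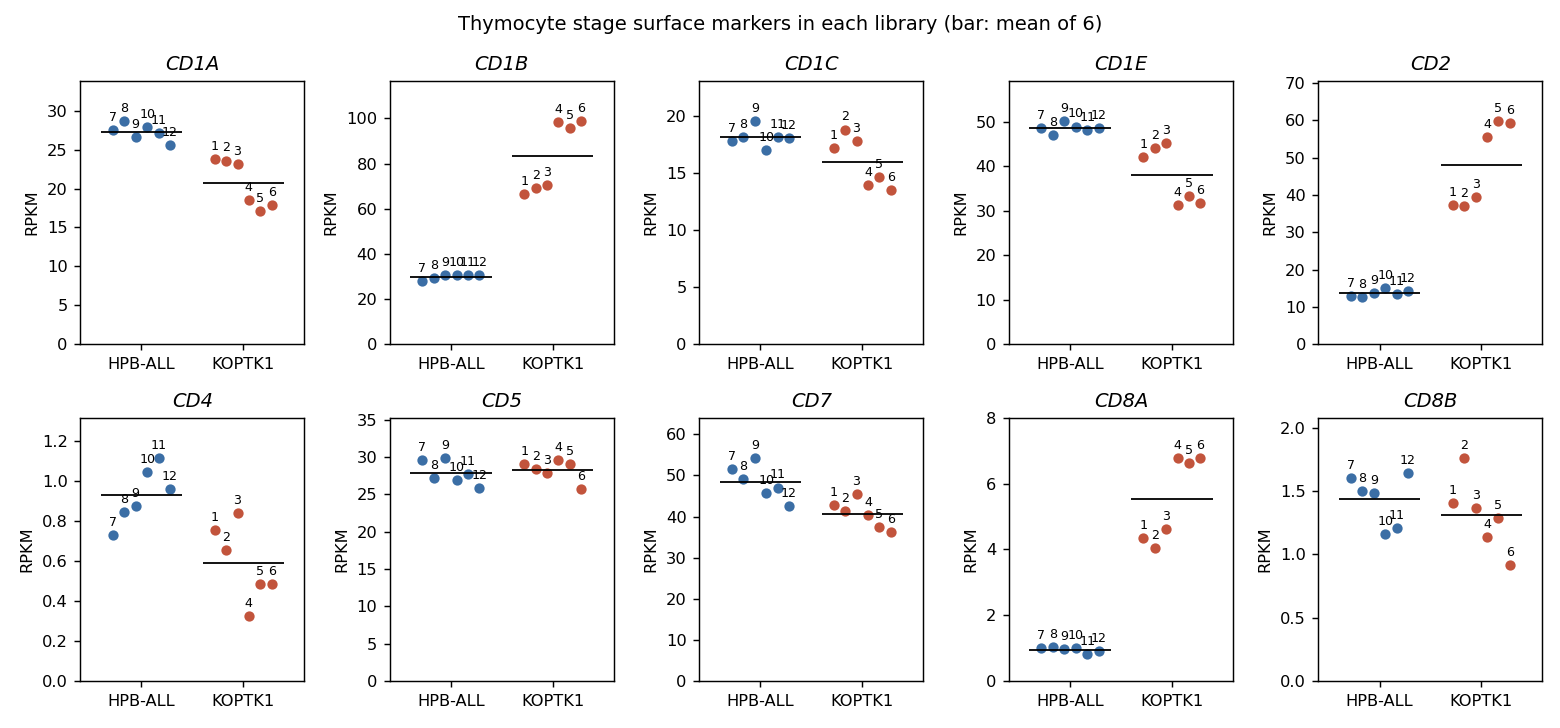
Level of each of the 10 markers in RPKM (vertical axis, linear and from 0, with its own scale for each gene) in the 6 HPB-ALL libraries (blue) and the 6 KOPTK1 libraries (red), with the library number above each point and the mean of 6 as a bar. CD1B, CD2 and CD8A were higher in all KOPTK1 libraries. In 8 of the 9 markers tested libraries 1, 2 and 3 did not overlap libraries 4, 5 and 6, beside 50.1% of all genes tested.

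The 4 CD1 genes lie in a cluster on chromosome 1, in the order CD1A (chr1:158254137-158258269), CD1C (chr1:158289786-158293630), CD1B (chr1:158327951-158331531) and CD1E (chr1:158353696-158357553). CD1B is on the minus strand and the other 3 are on the plus strand. All 4 were expressed in every library, and the 4 genes did not move together between the lines: CD1B was higher in KOPTK1, and CD1A and CD1E were higher in HPB-ALL. The genes are related in sequence, and the deposited counts of each include values that are not whole in at least 1 library, so some reads were not counted whole.

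CD1B ranged from 28.2 to 30.8 RPKM in HPB-ALL, with a median of 30.5. In KOPTK1 it was at 66.6, 69.3 and 70.4 RPKM in libraries 1, 2 and 3 and at 98.3, 95.8 and 98.8 in libraries 4, 5 and 6. Every KOPTK1 library was above every HPB-ALL library, with libraries 1, 2 and 3 in between. CD1B was 2.77-fold lower in HPB-ALL (log2 difference -1.47, SE 0.10, edgeR adjusted p = 1.1e-07). The log2 difference was -1.69 without libraries 1, 2 and 3 and -1.20 without libraries 4, 5 and 6. By level CD1B ranked 2590 of all listed genes in HPB-ALL and 536 in KOPTK1, where it was the highest of the 10 markers.

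CD1A, the marker commonly used to define the cortical stage, ranged from 25.5 to 28.7 RPKM in HPB-ALL, with a median of 27.4. KOPTK1 had it at 23.8, 23.6 and 23.1 RPKM in libraries 1, 2 and 3 and at 18.5, 17.2 and 17.9 in libraries 4, 5 and 6. The lines did not overlap, and the order of the 3 sets of libraries was the reverse of that for CD1B. The log2 difference was 0.40 (SE 0.08, edgeR adjusted p = 0.00074), and it was 0.63 without libraries 1, 2 and 3 and 0.21 without libraries 4, 5 and 6.

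CD1E had the smallest relative spread of the 10 markers in HPB-ALL, at 47.1 to 50.2 RPKM with a median of 48.7. The KOPTK1 levels were 42.2, 44.0 and 45.2 RPKM in libraries 1, 2 and 3 and 31.3, 33.3 and 31.8 in libraries 4, 5 and 6. The lines did not overlap, with libraries 1, 2 and 3 again in between. Between the lines, the log2 difference was 0.36 (SE 0.09, edgeR adjusted p = 0.0026), and it was 0.61 without libraries 1, 2 and 3 and 0.15 without libraries 4, 5 and 6.

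CD1C was the lowest of the 4 in both lines by its mean. It ranged from 17.0 to 19.5 RPKM in HPB-ALL, with a median of 18.1. Its KOPTK1 levels were 17.2, 18.8 and 17.8 RPKM in libraries 1, 2 and 3, within the range of HPB-ALL, and 13.9, 14.6 and 13.5 in libraries 4, 5 and 6, below it. Over the 12 libraries the difference did not pass the threshold (log2 difference 0.18, SE 0.08, edgeR adjusted p = 0.061). The call turned on which libraries were used: the log2 difference was 0.38 without libraries 1, 2 and 3 (adjusted p = 6.6e-06) and 0.01 without libraries 4, 5 and 6 (adjusted p = 0.85). It also passed when library 2 or library 3 alone was left out, at 0.23 (adjusted p = 0.014) and 0.21 (adjusted p = 0.036).

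The sum of the 4 CD1 genes differed less between the lines than its makeup did. It ranged from 122 to 127 RPKM in HPB-ALL and from 149.7 to 162 in KOPTK1. CD1B made up 23.0% to 25.0% of the sum in HPB-ALL and 44.5% to 61.0% in KOPTK1. CD1E made up 38.3% to 39.8% in HPB-ALL, where it was the largest component in all 6 libraries, and 19.3% to 28.9% in KOPTK1. The ratio of CD1B to CD1A ranged from 1.02 to 1.21 in HPB-ALL, so these genes were at nearly equal level there, and from 2.80 to 5.58 in KOPTK1. Within KOPTK1 the ratio was at most 3.04 in libraries 1, 2 and 3 and at least 5.32 in libraries 4, 5 and 6.

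**Figure D2:**
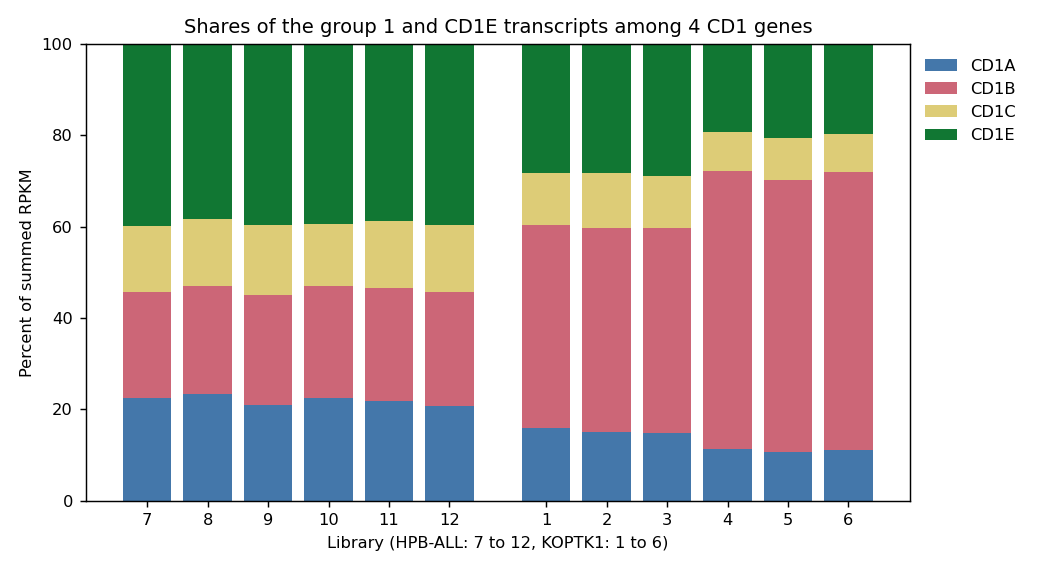
Share of CD1A, CD1B, CD1C and CD1E in their summed RPKM (vertical axis, percent) in each library (horizontal axis, HPB-ALL on the left and KOPTK1 on the right). CD1E was the largest component in the 6 HPB-ALL libraries and CD1B in the 6 KOPTK1 libraries, at 44.5% to 61.0%.

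CD2 encodes an adhesion receptor that binds CD58 and lies at chr1:116754385-116769228 on the plus strand, far from the CD1 cluster. In HPB-ALL it ranged from 12.7 to 15.0 RPKM with a median of 13.5. In KOPTK1 it was at 37.3, 36.9 and 39.4 RPKM in libraries 1, 2 and 3 and at 55.6, 59.8 and 59.3 in libraries 4, 5 and 6. The lines did not overlap, and the libraries stood in the same order as for CD1B and CD8A. CD2 was 3.51-fold lower in HPB-ALL (log2 difference -1.81, SE 0.13, edgeR adjusted p = 1.2e-07). The log2 difference was -2.08 without libraries 1, 2 and 3 and -1.48 without libraries 4, 5 and 6. Among the 10 markers CD2 ranked second by mean level in KOPTK1, at 48.1 ± 11.3 RPKM (SD, n = 6), and seventh in HPB-ALL, at 13.7 ± 0.871 (SD, n = 6). The rank in KOPTK1 held in libraries 4, 5 and 6, whereas CD2 was below CD7 and CD1E in libraries 1, 2 and 3.

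CD7, an immunoglobulin-family receptor that is among the earliest T-lineage markers, lies at chr17:82314868-82317602 on the minus strand. In HPB-ALL it was at 51.5, 49.1 and 54.3 RPKM in libraries 7, 8 and 9 and at 45.6, 47.1 and 42.5 in libraries 10, 11 and 12. KOPTK1 had it at 42.7, 41.4 and 45.4 RPKM in libraries 1, 2 and 3 and at 40.4, 37.4 and 36.1 in libraries 4, 5 and 6. The lines overlapped at the low end of HPB-ALL and the high end of KOPTK1, between library 12 and libraries 1 and 3. Its log2 difference was 0.25 (SE 0.07, edgeR adjusted p = 0.0036), and it was 0.36 without libraries 1, 2 and 3 and 0.16 without libraries 4, 5 and 6 (adjusted p = 0.044). The ratio of CD7 to CD2 ranged from 2.97 to 3.98 in HPB-ALL and from 0.609 to 1.15 in KOPTK1.

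CD5, a scavenger-receptor family protein that dampens signaling from the T-cell receptor, lies at chr11:61102395-61127852 on the plus strand. It ranged from 25.9 to 29.9 RPKM in HPB-ALL with a median of 27.5, and from 25.7 to 29.6 in KOPTK1 with a median of 28.7. The ranges covered each other almost fully, and CD5 was the only one of the 10 markers for which libraries 1, 2 and 3 overlapped libraries 4, 5 and 6. Of all genes tested, 50.1% had no overlap between these sets. CD5 had a log2 difference of -0.02 (95% interval -0.12 to 0.07, edgeR adjusted p = 0.70). It was 0.00 without libraries 1, 2 and 3 and -0.03 without libraries 4, 5 and 6.

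**Figure D3:**
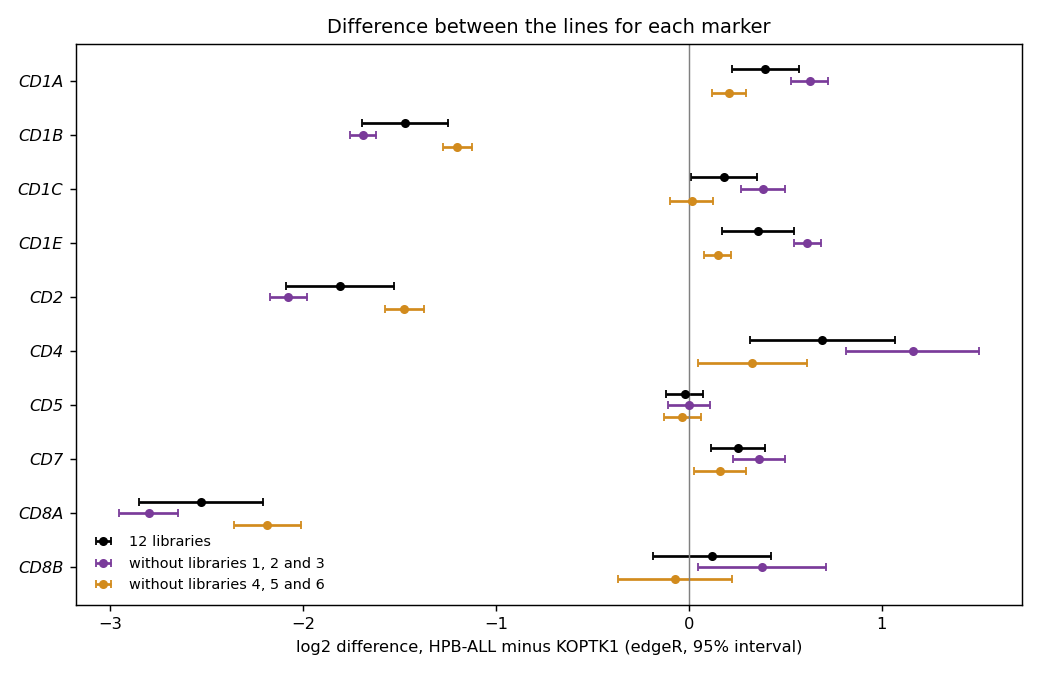
Difference between the lines for each marker (horizontal axis, log2, HPB-ALL minus KOPTK1) with its 95% interval from edgeR, over the 12 libraries (black), without libraries 1, 2 and 3 (purple) and without libraries 4, 5 and 6 (orange); CD4 is from the fit with no minimum level. CD8A, CD2 and CD1B lay at -2.53, -1.81 and -1.47, and CD5 at -0.02.

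Ordered by mean level per kilobase, the markers in HPB-ALL ran CD1E, CD7, CD1B, CD5, CD1A, CD1C, CD2, CD8B, CD8A and CD4. Of the neighbours in this order, CD1E and CD7, CD1B and CD5, CD5 and CD1A, and CD8A and CD4 overlapped in their ranges over libraries. In KOPTK1 the order was CD1B, CD2, CD7, CD1E, CD5, CD1A, CD1C, CD8A, CD8B and CD4, and CD2 and CD7, CD7 and CD1E, and CD1A and CD1C overlapped. In both lines the 3 coreceptor chains were the lowest. CD4 and CD8B lay under 2 RPKM in every library, whereas the lowest value of any CD1 gene was 13.5 RPKM.

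The lines did not overlap in 5 of the 9 markers tested (CD1A, CD1B, CD1E, CD2 and CD8A), beside 45.4% of all genes tested. CD8A is among them, though it reached the minimum level only through KOPTK1. For each of these 5 markers an exact two-sided permutation test of the 12 libraries on log2(RPKM + 1) gave p = 0.00216. This is the smallest value that 6 against 6 can give, and lines that do not overlap always give it. The test thus adds nothing to the separation in these markers. In the same 5 markers, libraries 1, 2 and 3 all lay between HPB-ALL and libraries 4, 5 and 6, beside 35.0% of all genes. For CD4 and CD7 the exact permutation test gave p = 0.00866, for CD1C p = 0.0693, for CD8B p = 0.390 and for CD5 p = 0.617.

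Without libraries 1, 2 and 3, 8 of the 9 markers passed the threshold, all but CD5, beside 69.6% of all genes tested. These were the KOPTK1 libraries nearer to HPB-ALL, so leaving them out favoured more calls. Without libraries 4, 5 and 6, 6 of the 9 passed, beside 53.4%. Libraries 1, 2 and 3 did not overlap libraries 4, 5 and 6 in 8 of the 9 markers, beside 50.1% of all genes. The coefficient of variation within HPB-ALL ranged from 2.03% for CD1E to 15.2% for CD4, beside a median of 7.07% over 22481 expressed genes. Within KOPTK1 it ranged from 4.91% for CD5 to 32.6% for CD4, beside a median of 12.9% over 23221 genes. It was above that median for all markers other than CD5 and CD7.

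The markers were set beside a list of 29 further surface molecules of T-cell development, of which 28 were matched and 25 were tested. In this list 8 genes were higher in HPB-ALL, 13 were higher in KOPTK1 and 4 did not pass, beside backgrounds of 32.5% and 32.4% of all genes tested. The genes highest in KOPTK1 by their log2 difference were CD44 (-5.62), an adhesion molecule of early progenitors, CD38 (-2.94), an ectoenzyme, the chemokine receptor CCR9 (-2.15) and the progenitor marker CD34 (-1.83). Those highest in HPB-ALL were the stem cell factor receptor KIT (1.47), the IL-7 receptor chain IL7R (1.06), SPN (0.47), which encodes CD43, and CD99 (0.42), an adhesion molecule. Without libraries 1, 2 and 3 the counts were 8 and 14, beside 69.6% of all genes called in either direction. The log2 difference was then 3.32 for KIT and 1.83 for IL7R. Without libraries 4, 5 and 6 the counts were 9 and 12, beside 53.4% of all genes. KIT was then at 0.72 and IL7R at 0.60, and KIT ranged from 0.223 to 2.14 RPKM in KOPTK1. CD44 was at 0.0213 to 0.328 RPKM in HPB-ALL and reached the minimum level through KOPTK1, where it was at 4.77 to 8.77, so it had to differ and its fitted size rests on few reads. IL7R likewise reached the minimum through HPB-ALL, with a mean of 1.64 RPKM there and 0.772 in KOPTK1.

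Of 17 transcriptional regulators of the CD4, CD8 and CD1 stage, 15 were tested. In this list 9 were higher in KOPTK1, with TCF7 (-0.89), TOX (-0.78), MYB (-0.68) and BCL11B (-0.49) differing most. RUNX3 (0.40), a factor that represses CD4 and maintains CD8 in the CD8 lineage, and ETS1 (0.12) were higher in HPB-ALL, and 4 did not pass, beside backgrounds of 32.4% higher in KOPTK1 and 32.5% higher in HPB-ALL. Without libraries 1, 2 and 3, 10 were higher in KOPTK1 and 3 in HPB-ALL, beside 69.6% of all genes called in either direction. Without libraries 4, 5 and 6 the counts were 7 and 2, beside 53.4%. ZBTB7B, which encodes the CD4-lineage factor ThPOK, and SPI1 did not reach the minimum level. A link between these regulators and the levels of CD4 or CD8A was not tested.

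**Figure D4:**
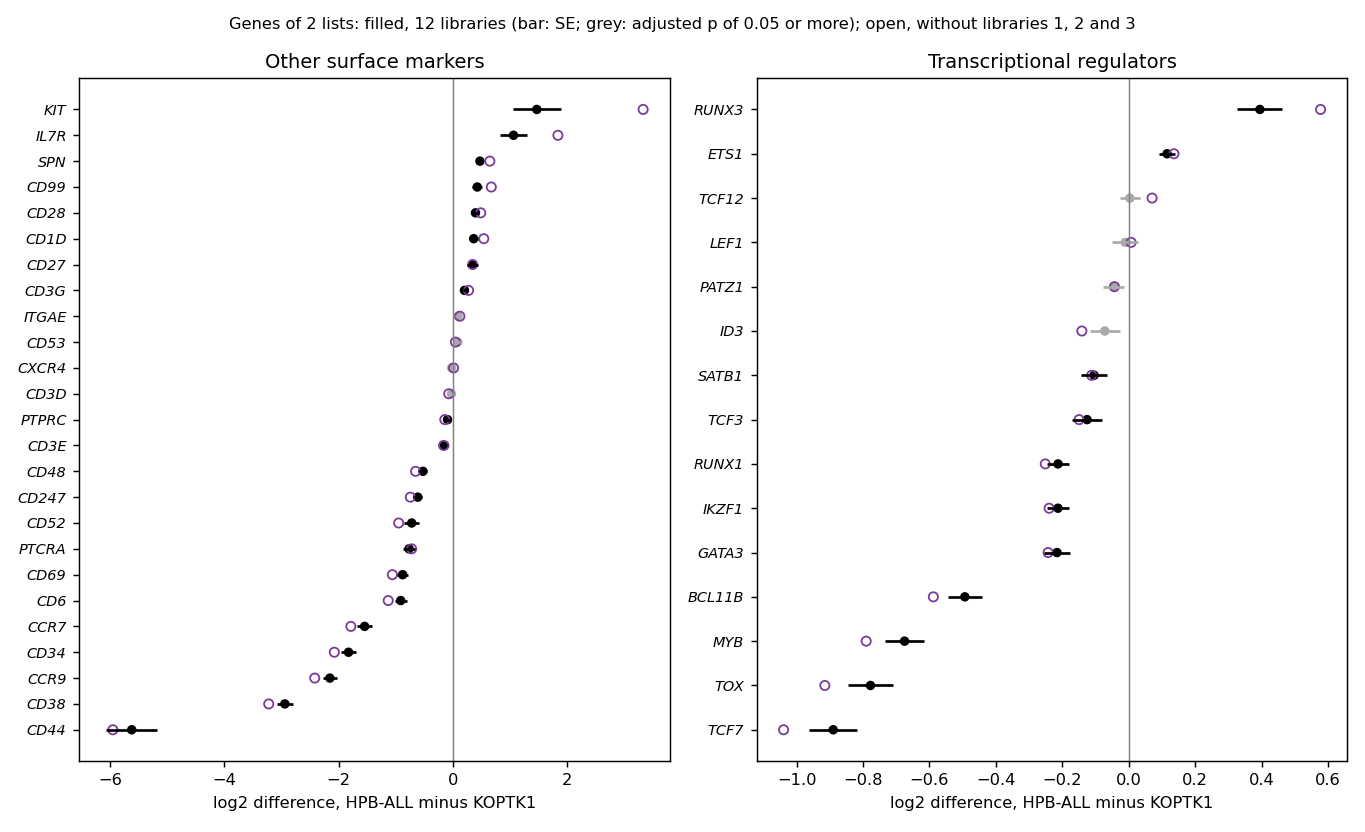
Difference between the lines (horizontal axis, log2, HPB-ALL minus KOPTK1) for 25 other surface molecules (left) and 15 transcriptional regulators (right), over the 12 libraries (filled points, with the SE as a bar, in grey where the edgeR adjusted p was 0.05 or more) and without libraries 1, 2 and 3 (open points). CD44 lay at -5.62 and KIT at 1.47 on the left, and TCF7 at -0.89 and RUNX3 at 0.40 on the right.

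Of 11 partners of the marker proteins, 8 were tested, 2 were higher in HPB-ALL, 4 were higher in KOPTK1 and 2 did not pass, beside the same backgrounds. Without libraries 1, 2 and 3 the counts were 3 and 4, as GM2A, which encodes a lipid-binding activator protein, passed there (0.22, edgeR adjusted p = 0.0017). These counts stood beside 69.6% of all genes called in either direction. Without libraries 4, 5 and 6 they were 2 and 4, beside 53.4%. LCK, the kinase bound by CD4 and CD8, was higher in HPB-ALL by 0.27 on the log2 scale, and so was CD72 (0.78), a proposed ligand of CD5. CD58, the ligand of CD2, was lower in HPB-ALL (-0.49), as was CD48 (-0.53), which also binds CD2. B2M, the light chain of the CD1 proteins and of MHC class I, differed by -0.18, and AP3B1, a subunit of the adaptor that sorts CD1b to lysosomes, by -0.44. Whether B2M or AP3B1 is linked to the level of any CD1 gene was not tested.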

How the data were processed

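Libraries of HPB-ALL and KOPTK1 cells (6 each) were made from rRNA-depleted total RNA. Per the labels, the submitters' processing notes name Trimmomatic 0.36, STAR 2.5.4b, Picard 2.18.7, featureCounts 1.6.2, edgeR 3.22.3 and the build hg38, whereas the methods give hg19. All 10 markers overlapped their GRCh38 positions, and coordinates are given as hg38. The authors deposited 1 table per line with expected counts per gene and library (83.8% of the values were whole), which were rounded for testing. The tables also hold the authors' fold change, F, p-value, FDR and mean log2 CPM, which were not used. Columns are headed 1 to 12. A column was given its line through the table that the labels of each sample name, and no shRNA arm was assigned. Strand was not given in the sources used here.

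RPKM was computed from the total of assigned counts of each library and the exonic length in the tables. Genes with a mean of at least 1 RPKM over the 12 libraries were tested with edgeR 4.0.16 (TMM, quasi-likelihood, no covariate) in R 4.3.3, with Benjamini-Hochberg adjustment over 23090 genes and a threshold of 0.05. The standard error was derived from the F statistic. Each library was scaled by its own total, and both tables hold the same genes, so they were fitted together. The steps were tested on simulated counts that took their spread from the HPB-ALL libraries and held no split within KOPTK1. The simulation therefore does not show how the fit handles the separate sets of KOPTK1 libraries. No pair of libraries of a line agreed within sampling noise (lowest mean chi-square per gene 1.80). Symbols matched 95.8% of the identifiers. RefSeq promoter entries were found for 5 of the 10 markers, and those with at least 200 bases upstream of the exons are printed.

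The markers and gene lists were chosen with earlier results of these data known. Some list items are not reported here and were left out of the counts. All markers are named. From each list and from the protein-coding genes within 100 kb of a marker, at most the 4 genes with the largest difference in each direction are named, besides genes given as not passing the test in a fit or not reaching the minimum level, and ANAPC1P1, chosen after their values were seen. Alternatives were no minimum level, a minimum of 10 RPKM, library totals without TMM, DESeq2 1.42.0, a minimum log2 difference of 1, exact permutation and each library left out. Leaving out libraries 1, 2 and 3, or 4, 5 and 6, was added after the data were seen.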

Additional observations from a re-analysis of the deposited data

How the results depend on the processing

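Of 172 recomputed marker differences, 162 had the same sign and the same call as reported, and the 20 levels changed by less than 1 SD under the median. Of the 23090 genes tested, 15000 differed between the lines. The count was 6429 at a mean of at least 10 RPKM and 2528 with a minimum log2 difference of 1, both stricter by construction, and 14211 to 15288 with 1 library left out. CD1C passed the threshold with no minimum level (0.24, adjusted p = 0.021), with DESeq2 (0.19, adjusted p = 0.043), without libraries 1, 2 and 3 (0.38) and without library 2 or library 3, within a range of 0.14 to 0.23 over the libraries left out. CD8B passed without libraries 1, 2 and 3 (0.38) and changed sign without libraries 4, 5 and 6 (-0.073). CD4 no longer passed without libraries 4, 5 and 6 (0.33). CD5 changed sign with no minimum level (0.041) and without libraries 1, 2 and 3 (0.0015), with an adjusted p over 0.05 in both. The cause of these changes was not tested. The fit with no minimum level shifted the median log2 difference by 0.06.

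No paired analysis was possible because the columns carry neither the arm nor the replicate number of the labels. For the same reason the fits of the knockdown and of each replicate left out within it were not run, and pseudocounts were not varied because the values were counts. CD4 was not fitted with 1 library left out. Low counts limit CD4 and CD8B, with 29 and 39 as their lowest counts in a library. The intervals cover the spread between these libraries only.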

Other observations

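The protein-coding genes within 100 kb of a marker did not share its direction throughout. CD1D, the remaining CD1 gene, which presents lipids to NKT cells, lies 69241 bases from CD1A and was higher in HPB-ALL by 0.36 on the log2 scale (SE 0.07, edgeR adjusted p = 0.00036), close to CD1A (0.40) and CD1E (0.36). Its log2 difference was 0.54 without libraries 1, 2 and 3 and 0.21 without libraries 4, 5 and 6. OR10T2, an olfactory receptor gene beyond CD1E, had means of 1.21 RPKM in HPB-ALL and 1.20 in KOPTK1 and did not pass the threshold (0.02, adjusted p = 0.90). CD1B was thus the only one of the 5 CD1 genes called higher in KOPTK1, and CD1C did not pass.

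Of the 4 genes near CD8A, all were tested, and RMND5A (0.48) and RGPD1 (0.42) were higher in HPB-ALL, beside 32.5% of all genes tested. These 2 genes were at 0.63 and 0.57 without libraries 1, 2 and 3. CD6, which encodes a receptor related to CD5 and lies 82018 bases from it, was lower in HPB-ALL by its log2 difference of -0.92 (SE 0.10, edgeR adjusted p = 6.6e-06), with means of 14.5 RPKM in HPB-ALL and 27.3 in KOPTK1, while CD5 was at -0.02. CD6 was at -1.13 without libraries 1, 2 and 3 and at -0.65 without libraries 4, 5 and 6. Of 15 genes near CD4, 13 were tested and 7 were higher in HPB-ALL, beside 32.5% of all genes tested. P3H3 (1.59), PTMS (1.04), GNB3 (0.47) and COPS7A (0.27) differed most. The count higher in HPB-ALL was 8 without libraries 1, 2 and 3, beside 69.6% of all genes called in either direction. In that fit P3H3 was at 2.95, PTMS at 1.64, GNB3 at 0.55 and COPS7A at 0.30. CD4 itself was called only in the fit with no minimum level, and a link to its neighbours was not tested. Of 6 genes near CD7, 4 were tested, beside backgrounds of 32.5% higher in HPB-ALL and 32.4% higher in KOPTK1. TEX19 (0.68), OGFOD3 (0.43) and SLC16A3 (0.21) were higher in HPB-ALL, and CSNK1D was lower (-0.18). These were at 0.93, 0.54, 0.27 and -0.23 without libraries 1, 2 and 3. IGSF3, the single gene near CD2, did not pass the threshold (0.09, adjusted p = 0.38).

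Among the markers of other lineages, NKG7 (0.26) was the NK-cell gene and CD79A (1.47) the B-cell gene that were tested and higher in HPB-ALL, and of the erythroid genes HBA2 was higher in HPB-ALL (1.24) and HBA1 did not pass (0.25). CD79A was at 2.72 without libraries 1, 2 and 3 and at 0.83 without libraries 4, 5 and 6, and HBA2 was at 2.09 and 0.77, while NKG7 was at 0.27 and 0.25. Within the T-lineage list, 3 genes were higher in HPB-ALL, 5 were higher in KOPTK1 and 1 did not pass, beside 32.5% and 32.4% of all genes tested. ZAP70 (0.85) was furthest in the first direction and TRBC2 (-2.41) in the second. The counts were 3 and 6 without libraries 1, 2 and 3, beside 69.6% of all genes called in either direction, with ZAP70 at 1.23 and TRBC2 at -2.66. They were 3 and 5 without libraries 4, 5 and 6, beside 53.4%, with ZAP70 at 0.57 and TRBC2 at -2.07.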
